A study of Drosophila melanogaster with 11 samples.

Results

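Heads of male flies kept for 10 days at 18 °C were compared with heads of males of the same age kept for 10 days at 25 °C, the temperature at which both sets had been raised. The comparison used 5 of the 11 libraries of the series, chosen by their labels: 3 libraries at 18 °C and 2 at 25 °C. All flies were wild-type CantonS, a common laboratory strain of Drosophila melanogaster, and were raised in 12 h of light and 12 h of dark. Males had been separated from females under CO2 and given a day to recover before the exposure began. The remaining 6 libraries, 3 from males frozen when the exposure was about to begin (pre-treatment) and 3 from males kept at 29 °C, entered the fit only to estimate the spread between replicates, and their levels are given beside the others. Total RNA depleted of ribosomal RNA was sequenced, so that both linear transcripts and circular RNAs (circRNAs) were measured. The labels name the tissue as head, while part of the series text speaks of brains. The hour of the day at which each group was frozen is not given in the sources used here. All values are normalized reads, which means reads divided by 1 size factor per library. The labels call the replicates biological, and per the study's methods each was pooled from several vials of males. Whether they came from separate rearing bottles is not given in the sources used here.

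Flies do not hold their body temperature, so their RNA is made and broken down at the temperature of the air. Their circadian clock is a feedback loop in which the transcription factors CLOCK and CYCLE drive period and timeless, whose proteins come back to repress them, and the loop keeps its daily period nearly constant over a range of temperatures while its molecular state follows both light and temperature. A circRNA is a closed loop formed when the end of an exon is joined to the start of the same or an upstream exon. It is counted from reads over this head-to-tail join, and without free ends it is usually long-lived in neurons.

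Libraries held 51.0 to 123.4 M reads at 18 °C and 56.4 to 62.9 M at 25 °C. Markers of head cell types were present in both groups. The summed level of 6 neuron markers ranged from 262401 to 327443 normalized reads at 18 °C and from 272641 to 326613 at 25 °C. That of 9 photoreceptor markers lay wholly lower in the cool, from 1535118 to 1564024 against 1620321 to 1667840. The sums of 7 glial markers did not overlap either, with 140346 to 146442 at 18 °C against 108442 to 119368.6 at 25 °C, and neither did those of 7 muscle markers, with 159627 to 194366 against 199722 to 246269. For 8 fat body markers the sums were 1153841 to 1438554 and 1183433 to 1202028, and for 6 haemocyte markers 58322 to 78642 and 58915 to 99207. Of 14 markers of testis, accessory gland, gut and ovary, 6 had a row, with a summed level of 645 to 1038 at 18 °C and 839 to 1239 at 25 °C. For scale, groups did not overlap in 31.7% of all linear genes tested. In whole heads, fewer cells of a type and less RNA per cell cannot be told apart.

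Cool exposure changed a small share of linear genes. Of 12676 genes with a mean of at least 10 normalized reads, 410 (3.23%) were called, 197 higher at 18 °C (1.55%) and 213 lower (1.68%), by limma on log2(value + 1) with an adjusted p under 0.05 and a change above 0.5 on the log2 scale. The median change over all genes was 0.00, and 17.9% of them had an unadjusted p under 0.05. Among the called genes the median size was 0.89 for those higher and 0.93 for those lower, 76 and 97 of them moved by more than 1 and 9 and 19 by more than 2. The 3 libraries at 18 °C lay wholly above or wholly below both libraries at 25 °C in all 410, and in 4024 of the genes tested (31.7%). The number of calls rested on single libraries: it was 208 without 18 °C replicate 1 and 213 without 25 °C replicate 1, and without 25 °C replicate 2 it was 316 with 219 higher and 97 lower. It was 87 when the 5 libraries were fitted alone, and 436 by edgeR on recovered reads.

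**Figure D1:**
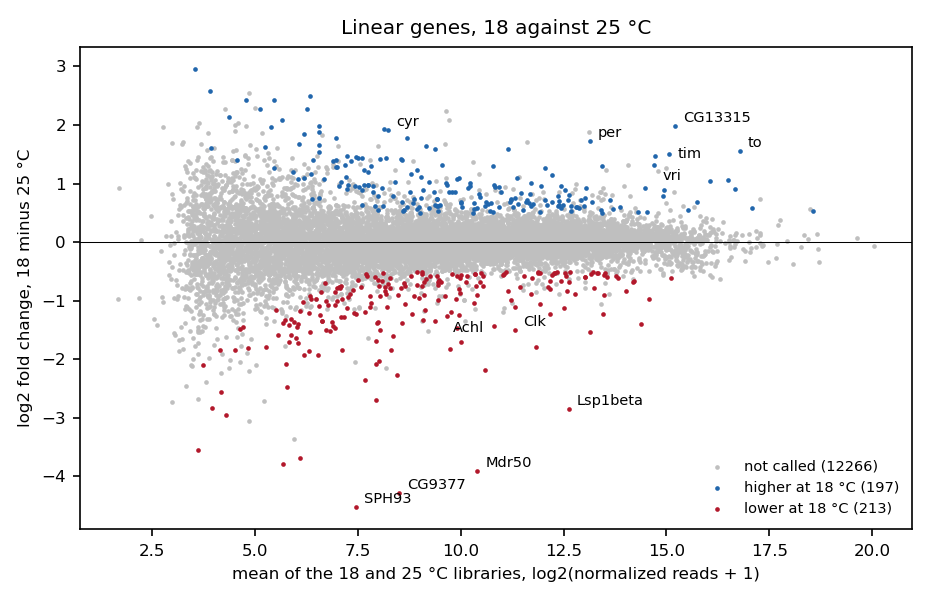
Change of each linear gene (18 minus 25 °C, log2, y axis) against its mean level over the 5 libraries (log2 of normalized reads + 1, x axis), 1 point per gene. The 197 genes called higher are blue, the 213 called lower are red, and most points lie close to 0.

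Genes of the circadian feedback loop were among those that changed. Of 20 clock genes tested, 4 were higher and 1 lower at 18 °C, beside 1.55% and 1.68% of all genes, and the median change over the list was 0.11 (-0.05 without 25 °C replicate 2, with as many calls). The transcript of timeless (tim), whose product is the light-sensitive partner of PERIOD, stood at 46692, 46348 and 45231 normalized reads at 18 °C and at 16563 and 15964 at 25 °C. The groups lay far apart and the libraries within each were close together. The change of 1.50 ± 0.06 (log2, SE) had the smallest adjusted p of the linear genes (2.96e-06, limma), a 2.83-fold difference of means.

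Of the other core genes of the loop, per, vri and Clk were called. Levels of period (per), which encodes the repressor itself, were 12948, 13248 and 11221 at 18 °C and 4009 and 3518 at 25 °C, a 3.31-fold difference (log2 1.73 ± 0.11, adjusted p = 5.06e-05, limma). Those of vrille (vri), which encodes a repressor of Clk, were 35858, 34868 and 33675 against 14412 and 13665 (log2 1.31 ± 0.08, adjusted p = 5.06e-05, limma). Clk, which encodes the activator CLOCK, went the other way, with 1555, 1596 and 1255 at 18 °C and 4550.2 and 3791 at 25 °C, 2.84 times lower in the cool (log2 -1.51 ± 0.13, adjusted p = 0.000375, limma). In all of these genes the groups were separate.

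Takeout (to), a clock-controlled gene expressed in fat body and antennae that bears on feeding, rose to 153602, 117227 and 189579 normalized reads from 48081 and 54721 (log2 1.55 ± 0.26, adjusted p = 0.00874, limma), and its call was lost without 25 °C replicate 1 (adjusted p = 0.0664, limma). Achilles (Achl), a rhythmically expressed gene outside the list and picked after its values were seen, fell to 1117, 1057 and 1029 from 2993 and 2787 (log2 -1.44 ± 0.08, adjusted p = 3.05e-05, limma). Both genes again had groups that were fully apart.

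The remaining 15 clock genes were not called. Pdp1, an activator of Clk, was at 53020.2, 58651 and 40058 and 39875 and 26326 (log2 0.62 ± 0.22, adjusted p = 0.152, limma), with the groups just apart because 18 °C replicate 3 lay near 25 °C replicate 1. The level of cry, which encodes the blue light receptor of the clock, was 11243, 10039 and 14009 and 13588 and 18870.0, and these overlapped. Clockwork orange (cwo), a repressor within the loop, was at 12134, 12917 and 10818 against 9587 and 8149, with an adjusted p of 0.0448 by limma but a change of 0.43, under the size required. The partner of CLOCK, cyc, had 1755, 1715 and 1756 against 1519 and 1567, and Pdf, the neuropeptide of the lateral clock neurons, 5044, 5254 and 6365 against 5953 and 6425. Kinases and regulators of the loop, sgg, CkIIalpha, CkIIbeta, tws, slmb and nmo, all had changes between -0.03 and 0.23.

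**Figure D2:**
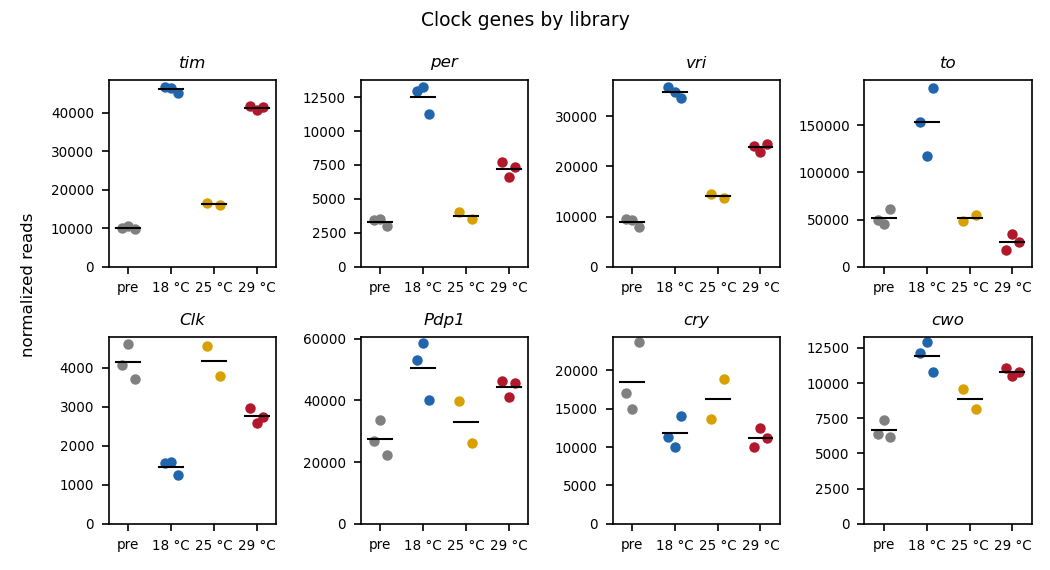
Normalized reads (y axis) of 8 clock genes in each library of the 4 groups (x axis), 1 point per library and a bar at the group mean. For tim, per, vri and to every point at 18 °C lies above both points at 25 °C, and for Clk below both.

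The libraries outside the comparison did not fall on a line with temperature for these genes. At 29 °C tim stood at 40678 to 41669 normalized reads, between the other exposed groups, and before treatment at 9710.1 to 10509. The order 18, 29, 25 °C also held for per, with 6616 to 7689 at 29 °C, and for vri, with 22928 to 24573. Clk was lowest at 18 °C, at 2581 to 2964 at 29 °C and highest at 25 °C. The part of the hour of freezing in these differences was not tested.

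Outside the clock, the largest rises among called genes with a mean of at least 100 normalized reads were mostly in genes known only by number. The 9 called rises above 2 on the log2 scale were all in genes under that mean. CG13315 had 58614, 61149 and 42480.2 normalized reads at 18 °C and 15134 and 11974 at 25 °C, a 3.99-fold difference (log2 1.99 ± 0.28, adjusted p = 0.00414, limma). Next came CG13840, with 437, 437 and 326 against 109 and 96.8, and cyr, with 366, 385 and 520.2 against 103 and 119. Only genes with groups that did not overlap were eligible for this choice.

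Obst-B, which encodes a chitin-binding protein of the cuticle, was at 543, 474 and 694 against 113 and 238 (log2 1.78, adjusted p = 0.00765, limma). The level at 29 °C was 56.9 to 64.2, below every other library. Act88F, the actin of the indirect flight muscles, followed the same order, with 851, 733 and 782 at 18 °C, 261 and 241 at 25 °C and 81.5 to 103 at 29 °C (log2 1.64, adjusted p = 0.00206, limma). Also among the 10 largest rises at this mean were CG10553 (log2 1.59), CG43402 (1.59) and CG34305 (1.78), and the call of CG34305 was lost in 7 of the 11 fits that left out 1 library.

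Among called genes with a mean of at least 100, each of the 10 largest falls exceeded the largest rise. Mdr50, which encodes a membrane pump of the ABC class, had 159, 218 and 239.8 normalized reads at 18 °C and 2814 and 3295 at 25 °C, 14.9 times lower in the cool (log2 -3.90 ± 0.26, adjusted p = 5.85e-05, limma). Its levels were 3329 to 3971 at 29 °C and 219 to 421 before treatment, so flies kept cool stayed near the starting level and the other exposed flies did not. CG9377 showed 36.4, 28.9 and 69.2 against 738 and 939, 18.7 times lower (log2 -4.28 ± 0.35, adjusted p = 0.000203, limma).

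The serine protease homologue SPH93 had the greatest change of all named genes, 3.43, 35.6 and 31.0 at 18 °C against 457 and 347 at 25 °C (log2 -4.53 ± 0.89, adjusted p = 0.0181, limma). It also had the widest spread, since 18 °C replicate 1 lay far under the others of its group, and its call was lost without either library at 25 °C. The larval serum protein gene Lsp1beta, a storage protein of haemolymph, was at 1609.9, 1873 and 1953 against 14081 and 12072 (log2 -2.85 ± 0.21, adjusted p = 0.000107, limma). Here the flies before treatment, at 15663 to 18926, lay with the warm groups, and only those kept cool were low.

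A pair of genes of chemosensory tissue were higher at each step in temperature. The antennal protein gene a10 had 72.0, 70.7 and 85.9 at 18 °C, 442 and 559 at 25 °C and 2157 to 2773 at 29 °C (log2 -2.70 ± 0.21, adjusted p = 0.00014, limma), and the odorant-binding protein gene Obp56a 589.9, 490.0 and 774, 1956 and 3946 and 6195 to 7049.7 (log2 -2.19, adjusted p = 0.00779, limma). No library of one exposed group lay within the range of another in either gene, and the Obp56a call was lost without 25 °C replicate 2 (adjusted p = 0.0516, limma). Completing the 10 largest falls at this mean were AttD, Jhe, CG7763 (log2 -2.09) and CG43064 (-2.03).

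**Figure D3:**
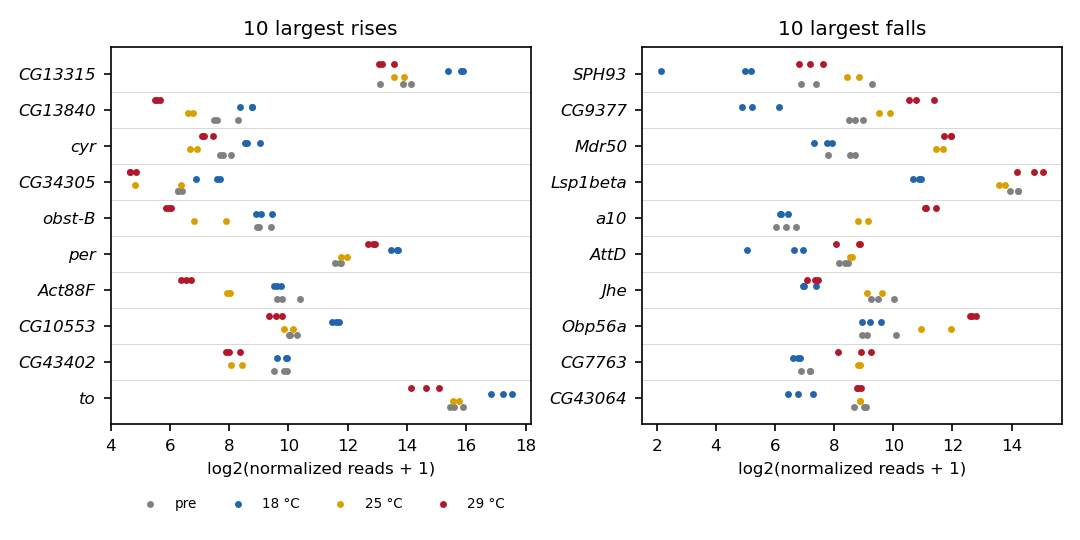
Levels (log2 of normalized reads + 1, x axis) of the called genes with the 10 largest rises and the 10 largest falls at a mean of at least 100 and groups that do not overlap (y axis), 1 point per library, coloured by group. Every blue point (18 °C) lies to the right of the yellow points (25 °C) in the left panel and to the left of them in the right panel.

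Heat shock proteins are chaperones, many of them induced by a rise in temperature. Of 25 genes in this list, which also holds constitutive members and the regulator Hsf, 2 were lower at 18 °C and 0 higher. Over all genes the shares were 1.68% and 1.55%, and the median of the list was -0.03. The count of lower genes was 4 by DESeq2, with a replicate block, with a depth covariate and without the pre-treatment group, and 0 with the 5 libraries alone. The alpha-crystallin gene l(2)efl, of the small chaperones, had 4824, 3657 and 3463 normalized reads at 18 °C and 9324 and 7827 at 25 °C (log2 -1.12 ± 0.17, adjusted p = 0.00521, limma), and Hsp68 1593, 1349 and 2359 against 3412 and 4059 (log2 -1.11 ± 0.21, adjusted p = 0.0136, limma). Groups did not overlap in either, but both calls were lost without 25 °C replicate 1, and that of Hsp68 also without 18 °C replicate 1 or 25 °C replicate 2. Hsp23 was at 532, 490.0 and 1088 and 1579.9 and 1789.7 (log2 -1.35, adjusted p = 0.095, limma) and Hsp26 at 284, 256 and 469 and 908 and 748 (log2 -1.34, adjusted p = 0.0732, limma). For both, 18 °C replicate 3 lay closest to the 25 °C libraries. The constitutive chaperone gene Hsc70-4 had a change of -0.12, Hsp83 of 0.19 and the heat shock transcription factor gene Hsf of 0.11. Reads of the near-identical Hsp70 copies could have been split between them, and all of these stayed under 170 normalized reads.

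Genes linked to cold had 0 calls by limma, in lists too short for this to stand out from the 3.23% of all genes called. Of 14 cold and stress genes 0 were called by limma, edgeR or DESeq2. At an unadjusted p under 0.05 in limma were 4 (17.9% of all genes), and the median was 0.03. Frost (Fst), a gene induced on recovery from cold shock, was near the bottom of the table, at 15.8, 14.7 and 8.35 against 11.9 and 25.5. The Turandot genes, which encode stress-induced secreted peptides, had 0 calls of 7 tested by limma or edgeR and 2 higher by DESeq2, with 2 at an unadjusted p under 0.05 in limma, and a median of 0.71, the highest of the lists (0.29 without 25 °C replicate 2, below that of 2 other lists). TotA stood at 10592, 18690.3 and 16635 against 7563 and 5362 (log2 1.22 ± 0.43, adjusted p = 0.152, limma) and TotC at 2496, 4969 and 5484 against 1003 and 1566 (log2 1.70 ± 0.51, adjusted p = 0.0946, limma). In both genes the groups were apart with a wide spread at 18 °C, and the flies before treatment were higher than all others, at 32371 to 54517 and 18269.6 to 19281.

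Channels that sense temperature and humidity had 2 rises among 13 tested, beside 1.55% of all genes, with a median of -0.03. TrpA1, a warmth-activated channel, had 447, 457 and 427 normalized reads at 18 °C and 328 and 288 at 25 °C (log2 0.53 ± 0.12, adjusted p = 0.0361, limma), and Ir68a, an ionotropic receptor for moist air, 305, 323 and 334 against 205 and 213 (log2 0.62 ± 0.12, adjusted p = 0.0186, limma). Each was higher in every cool library, though leaving out any single library of the 5 ended both calls. The receptors of cool cells in the antenna, Ir21a and Ir93a, had changes of 0.05 and -0.08, with overlapping groups, and the warmth channel pyx was at 442, 474 and 579.9 against 683 and 714 (log2 -0.49, adjusted p = 0.0932, limma).

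In the eye, 2 of 33 phototransduction genes were lower and 0 higher at 18 °C, beside 1.68% and 1.55% of all genes. Their median was -0.07. InaF-B, which encodes a small membrane protein needed for the TRP channel, was at 8423, 8529.7 and 8592 against 16483 and 15458, close to 1.88 times lower (log2 -0.91 ± 0.09, adjusted p = 0.000601, limma). Rh2, the rhodopsin of the ocelli, was at 9922, 9294 and 10831 against 13637 and 16569 (log2 -0.59, adjusted p = 0.018, limma). Smaller differences under the size required had adjusted p under 0.05 for the channel genes trp (log2 -0.30, adjusted p = 0.046, limma) and trpl (log2 -0.40, adjusted p = 0.0254, limma). The Rh2 call was lost without 18 °C replicate 1 or 2 or 25 °C replicate 2, while that of inaF-B held without any library. In 13 of the 33 the cool libraries lay below both others and in 1 above, beside 15.8% and 15.9% of all genes. The summed photoreceptor markers also lay lower at 18 °C, and their part in these values was not tested. The rhodopsin genes ninaE, Rh3, Rh4, Rh5 and Rh6 had differences of -0.08 to 0.29, and none was called.

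Neuronal genes gave no calls, and 2 glial genes were higher. Of 50 neuronal and synaptic genes 0 were called by limma, edgeR or DESeq2, beside 3.23% of all genes by limma. At an unadjusted p under 0.05 in limma were 7 (17.9% of all genes), with a median of 0.07 over the list. Of 23 glial genes 2 were higher, beside 1.55% of all genes, with a median of 0.17. These were Gat, the GABA transporter of astrocyte-like glia, at 7517, 8114 and 7351 against 5232 and 4725 (log2 0.62 ± 0.09, adjusted p = 0.00341, limma), and nrv2, a sodium pump subunit, at 27409, 28309 and 24788 against 19798 and 17871 (log2 0.51 ± 0.12, adjusted p = 0.0458, limma). In 11 of the 23 the cool libraries lay above both others and in 0 below, beside 15.9% above and 15.8% below over all genes. Both called genes are among the 7 glial markers, whose sum lay higher at 18 °C, and the part of glial number in these values was not tested. The nrv2 call was lost in 9 of the 11 fits without 1 library.

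Hormones that link feeding to growth changed in single members. CCHa2, a fat body peptide that acts on the insulin-producing cells, had 14080.4, 14624 and 14531 normalized reads at 18 °C and 7475 and 4637 at 25 °C (log2 1.29 ± 0.25, adjusted p = 0.0175, limma). AkhR, the receptor of the adipokinetic hormone that mobilises stored fat, was at 5156, 4636 and 4878 against 2853 and 2201 (log2 0.96 ± 0.11, adjusted p = 0.00151, limma). The insulin receptor gene InR was lower, with 7718, 8763 and 7908 against 11954 and 11278 (log2 -0.52 ± 0.08, adjusted p = 0.00771, limma). Groups were separate in all 3, but the CCHa2 call was lost without 18 °C replicate 1 or 2 or 25 °C replicate 2, and the InR call without 18 °C replicate 1 or 3 or 25 °C replicate 1.

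In the whole list of insulin and adipokinetic hormone genes, AkhR and InR were the calls among 25, beside 3.23% of all genes called. Ilp2 was at 7916, 7285 and 14486 and 10123 and 12909, Ilp3 at 434, 445 and 568 and 809 and 593 and Ilp5 at 1120.1, 1461 and 1014 and 873 and 593, and none was called. Among 36 neuropeptide genes 2 were higher (CCHa2 and the precursor gene Nplp2, log2 0.91) and 1 lower (the glycoprotein hormone subunit Gpb5, -0.57). Over all genes 1.55% were called higher and 1.68% lower, and the median of the list was -0.18. The Nplp2 and Gpb5 calls were lost without 18 °C replicate 1 or 2 or either library at 25 °C.

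Genes of stored fat had 0 calls, and those of sugar breakdown had 1 in each direction. Of 34 fat storage genes 0 were called by limma, edgeR or DESeq2, beside 3.23% of all genes by limma. At an unadjusted p under 0.05 in limma were 12 (17.9% of all genes), and the median was 0.07. Lsd-2, which encodes a perilipin that coats lipid droplets, was at 37534, 36884 and 38151 against 30309 and 28212, with an adjusted p of 0.0145 (limma) but a change of 0.36. Similar values held for mdy, an enzyme of triglyceride synthesis (log2 0.40, adjusted p = 0.0312, limma), while the lipase gene bmm lay lower (log2 -0.43, adjusted p = 0.0676, limma). Among 25 genes of glycolysis and lactate 1 was higher and 1 lower, beside 1.55% and 1.68% of all genes. Ldh, the lactate dehydrogenase, was higher with 1880.2, 1681 and 2007 against 1116 and 1199.5 (log2 0.68, adjusted p = 0.01, limma). Amy-p, an amylase gene, was lower with 331, 494 and 456 against 1732 and 1291 (log2 -1.83, adjusted p = 0.00521, limma), and its reads may be shared with the near-identical Amy-d. Both calls were lost without 25 °C replicate 1.

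Of 14 juvenile hormone genes 1 was higher and 2 lower, beside 1.55% and 1.68% of all genes. Juvenile hormone esterase (Jhe), which breaks down the hormone in haemolymph, had 121, 126 and 165 normalized reads at 18 °C and 546 and 791 at 25 °C, 4.87 times lower (log2 -2.26 ± 0.25, adjusted p = 0.000977, limma). Its level at 29 °C, 135 to 174, was as low as at 18 °C, and that before treatment, 601 to 1029, as high as at 25 °C. The epoxide hydrolase gene Jheh1, of the other breakdown route, was higher (log2 0.62, adjusted p = 0.028, limma), and Kr-h1, a transcription factor that the hormone induces, lower (log2 -0.50, adjusted p = 0.00756, limma). Those of Jheh1 and Kr-h1 were lost without 18 °C replicate 1 or 3 or 25 °C replicate 1, and that of Jheh1 also without pre-treatment replicate 1 or 29 °C replicate 3.

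Immune genes were called in both directions, beside 1.55% of all genes called higher and 1.68% lower. Of 52 genes for antimicrobial peptides and recognition 4 were lower and 1 higher, with a median of -0.17. Pirk, a negative regulator of the Imd pathway, was at 698, 756 and 611 against 1346 and 1330.3 (log2 -0.96 ± 0.09, adjusted p = 0.000597, limma), and the attacin gene AttD at 121, 98.7 and 32.2 against 393 and 367 (log2 -2.36 ± 0.46, adjusted p = 0.0181, limma). The recognition genes PGRP-SD (log2 -0.76) and PGRP-LF (-0.63) were also lower, and BomS4, a short bomanin named after its values were seen, was higher (1.32). Without 25 °C replicate 2 the list held 6 higher and 1 lower. The haemocyte markers NimC1, a phagocytosis receptor, at 762, 882 and 849.6 against 1104 and 1452 (log2 -0.61, adjusted p = 0.0222, limma), and Hml, a clotting factor, at 5155, 5566 and 5975 against 7519 and 8240.3 (log2 -0.50, adjusted p = 0.0407, limma), were lower too, the 2 calls of 16 haemocyte genes. Of the calls named by the rule in both lists, that of pirk alone held in every fit without 1 library: those of PGRP-SD and NimC1 were lost without 25 °C replicate 2 (NimC1 also without 18 °C replicate 1), that of AttD without either library at 25 °C, and those of PGRP-LF and Hml without any of 4 or more libraries. The part of haemocyte number in these values was not tested.

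Of 20 genes for metallothioneins and defence against oxidative stress 2 were lower and 1 higher, with a median of 0.03. Over all genes 1.68% were called lower and 1.55% higher. The metallothionein gene MtnA was at 12353, 12289 and 11825 against 20706 and 49091 (log2 -1.39 ± 0.29, adjusted p = 0.025, limma) and MtnD at 69.3, 94.9 and 87.1 against 146 and 279 (log2 -1.27, adjusted p = 0.0259, limma), each with a wide gap between the libraries at 25 °C, and each call was lost without 25 °C replicate 2 or without 18 °C replicate 1 or 3 (that of MtnA also without replicate 2). Gclm, a subunit of the enzyme that starts glutathione synthesis, was higher, with 6335, 6586 and 6268 against 3951 and 3871 (log2 0.71 ± 0.08, adjusted p = 0.00114, limma).

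In muscle, 2 of 33 genes were higher and 1 lower, beside 1.55% and 1.68% of all genes, with a median of -0.16. Beside Act88F, the actin gene Act79B was at 1203, 1006 and 1026 against 599 and 592 (log2 0.85, adjusted p = 0.01, limma), and the troponin C gene TpnC41C went down, at 495, 461 and 600.2 against 1121 and 1352 (log2 -1.25, adjusted p = 0.00848, limma). The Act79B call was lost without either library at 25 °C and the TpnC41C call without replicate 2 there. Reads of actin genes, which are alike in sequence, could have been split between copies. The summed muscle markers lay lower at 18 °C, the reverse of these actin genes.

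Large families with surface and chemosensory roles had calls in both directions, beside 1.55% of all genes called higher and 1.68% lower. Cuticle genes had 5 higher and 6 lower of 72 tested, and 5 and 1 without 25 °C replicate 2. Among them were Ccp84Ag (log2 1.46) and Cpr49Ae (0.72) above and Cpr47Eb (-2.83) below. Of 34 odorant-binding genes 2 were higher and 3 lower. Obp44a had 86013, 84355 and 88116 against 35896 and 48646 (log2 1.04 ± 0.14, adjusted p = 0.00294, limma), Obp99c changed by 0.79 and Obp19b by -0.57. Of 104 chemoreceptor genes 5 were higher and 1 lower (1 and 1 without 18 °C replicate 1, 1 and 0 without 25 °C replicate 1), such as the pheromone-sensing channel gene ppk29, with 253, 247 and 245 against 125 and 125 (log2 0.98, adjusted p = 0.00649, limma), and the odorant receptor gene Or1a, with 26.1, 38.9 and 26.3 against 76.9 and 81.9 (log2 -1.38, adjusted p = 0.01, limma). The calls of Obp19b and Or1a were lost without either library at 25 °C, that of Cpr49Ae without replicate 2 there and that of Obp99c without replicate 1.

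Detoxifying enzymes were also mixed, beside 1.55% of all genes called higher and 1.68% lower. Cytochrome P450 genes had 2 higher and 5 lower of 79, with a median of -0.10. Cyp18a1, which inactivates ecdysone, was at 2244, 2144 and 2286 against 1115 and 1142 (log2 0.98 ± 0.10, adjusted p = 0.000654, limma), and Cyp309a2 at 1593, 1627 and 1968 against 3023 and 3103 (log2 -0.83, adjusted p = 0.00712, limma). Of 59 glutathione and glucuronosyl transferase genes 4 were higher and 5 lower (0 and 4 without 25 °C replicate 1), led by GstZ2 (log2 -1.23, adjusted p = 0.000312, limma), Ugt37B1 (-1.38, 0.00414) and Ugt50B3 (-1.03, 0.00185), all lower.

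Cytosolic ribosomal protein genes, a list matched by symbol, had the lowest median of the lists, -0.24. Of its 85 genes 2 were called lower (RpS9 and RpL24-like, the latter in the list by its name) and 0 higher. In 28 the cool libraries lay wholly below 25 °C and in 0 above. Over all genes 1.68% were called lower, 15.8% lay below and 15.9% above. RpS9 stood at 14816, 15154 and 15378 against 28804 and 20134 (log2 -0.67, adjusted p = 0.0257, limma). The RpS9 call was lost without any library at 18 °C or without 25 °C replicate 1. Without 25 °C replicate 2 the median was -0.14 and the calls were 6 higher and 1 lower. Small nucleolar and nuclear RNAs had a median of 0.44 with 1 of 150 called higher, 21 above and 3 below (1.55%, 15.9% and 15.8% of all genes). Both values turned on 1 library: the median was -0.09 with 0 higher and 1 lower without 25 °C replicate 1, and 0.97 with 14 higher without replicate 2. The 76 oxidative phosphorylation genes had a median of 0.14, with 21 above and 1 below (15.9% and 15.8% of all genes), 0 calls by limma or edgeR and 5 higher by DESeq2, and 16 at an unadjusted p under 0.05 in limma. Without 25 °C replicate 2 limma called 10 of them higher (median 0.26), and without replicate 1 the median was 0.06 with 0 calls. The 41 proteasome genes had a median of 0.15 and 0 calls by limma, with 8 at an unadjusted p under 0.05 (3.23% and 17.9% of all genes). Each other tool called 1 of them lower. By all 3 tools 0 were called of 72 mitochondrial ribosomal protein genes (median 0.08, 11 at an unadjusted p under 0.05 in limma, 4 higher without 25 °C replicate 2), 48 splicing factors and regulators of circRNA (0.04, 5), 18 sex determination genes (-0.10, 2), 21 eye pigment genes (0.10, 4) and 5 histone genes (-0.07, 1).

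**Figure D4:**
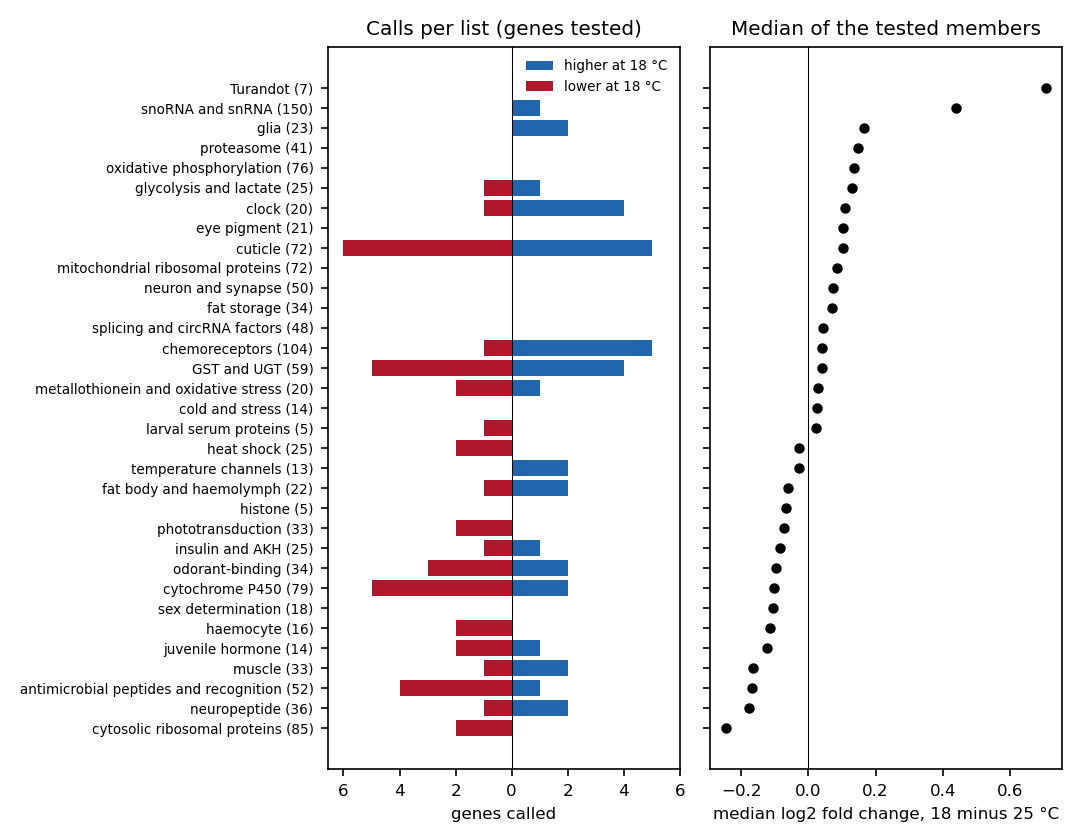
Left, genes called higher (blue, to the right) or lower (red, to the left) at 18 °C in each list, with the number tested in brackets; right, the median log2 fold change of the tested members. The Turandot genes have the highest median (0.71, but 0.29 without 25 °C replicate 2) and the cytosolic ribosomal protein genes the lowest (-0.24), with few or no calls in either.

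CircRNAs gave almost no calls in this comparison. Total circRNA was 35403, 29732 and 36894 normalized reads in the 3 libraries at 18 °C and 33147 and 42418 at 25 °C, and the groups overlapped. The ratio of means was 0.900, with p = 0.6 by an exact two-sided permutation test, for which 0.2 is the smallest value that 3 against 2 libraries allow. Without 25 °C replicate 2 the ratio was 1.03, on the other side of 1. Between 1776 and 1910 circRNAs were detected per library at 18 °C and 1740 and 1820 at 25 °C.

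Of 1767 circRNAs tested 3 were called higher at 18 °C (0.17%) and 0 lower by limma, with 112 at an unadjusted p under 0.05 (6.34%). The count at that p by limma was 249 without the pre-treatment group and 195 with the 5 libraries alone, each with 0 called. It was 65 without 18 °C replicate 3, and 185 without pre-treatment replicate 2, with 4 called. That pre-treatment library had a circRNA total of 13271 normalized reads, against 31621 and 35197 in the others of its group. By edgeR 0 were called, with 99 at an unadjusted p under 0.05, and by DESeq2 0, with 105. The cool libraries lay wholly above the others for 246 circRNAs (13.9%) and wholly below for 282 (16%). Among the 435 with a mean of at least 20 normalized reads over the 5 libraries, 31 lay above, 95 below and 25 had an unadjusted p under 0.05.

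All 3 calls were of rare circRNAs that passed the filter on low values only through the 18 °C group, and so had to differ. The circRNA of CG31663 (2L:1869074-1869527, dm6) had 10, 11 and 4 junction reads at 18 °C, that of sm, an hnRNP L relative, (2R:19537776-19538211) 8, 9 and 4, and that of MP1, a melanization protease, (3R:4308264-4309084) 7, 7 and 4. Each had 0 reads in the other 8 libraries. Means at 18 °C were 1.89, 1.63 and 1.45 times a floor of 3 reads per library at 25 °C, and this floor covers counting error only. Since the filter required values above 3 in the 18 °C libraries, folds above 1 were fixed in advance and carry no support. The linear transcript of CG31663 changed by 0.32 and that of sm by 0.18, and neither was called.

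Named next are the largest falls among circRNAs with a mean of at least 20 normalized reads, groups apart and an unadjusted p under 0.05, and none of them was called. The circRNA of Ank2, an ankyrin of synapses and axons, from a single exon of 5132 nt, had 18.5, 17.1 and 13.1 normalized reads at 18 °C and 42.1 and 51.0 at 25 °C (log2 -1.47 ± 0.40, adjusted p = 0.336, limma). At 29 °C it had 74.4 to 80.7 and before treatment 9.12 to 21.9. The cool group thus lay at the starting level and each warmer group above it, while linear Ank2 changed by -0.16.

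The circRNA of Sarm, a driver of axon degeneration, had 9.6, 11.9 and 19.1 against 42.1 and 33.0 (log2 -1.45 ± 0.40, adjusted p = 0.336, limma), 51.8 to 60.1 at 29 °C and 4.71 to 5.98 before treatment. That of CadN, a neuronal cadherin, had 17.8, 19.9 and 13.1 against 43.9 and 34.0 (log2 -1.16, adjusted p = 0.619, limma) and 47.9 to 62.8 at 29 °C. The order of the exposed groups followed temperature in both. Of the same kind were the circRNAs of Lpin, a lipin of fat synthesis (11.7, 13.8 and 14.3 against 30.2 and 34.0), bt, a giant muscle protein (48.7, 39.8 and 45.3 against 87.0 and 109.5), and l(1)G0196, an inositol polyphosphate kinase (19.9, 15.7 and 10.7 against 37.5 and 55.3).

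The largest rises chosen in the same way were not called either. The circRNA of Bsg, a basigin of the blood-brain barrier and eye, had 80.3, 78.7 and 114.6 normalized reads at 18 °C and 42.1 and 37.2 at 25 °C (log2 1.16 ± 0.41, adjusted p = 0.605, limma), and 19.5 to 22.6 at 29 °C. Those of CG5151 (45.3, 41.7 and 53.7 against 18.3 and 21.3), the kinase gene Dyrk2 (30.9, 29.9 and 29.8 against 16.5 and 9.57) and the potassium channel regulator Slob (54.2, 36.1 and 59.7 against 23.8 and 24.5) were likewise higher in all cool libraries. The circRNA of scrib, a scaffold of cell polarity, had 33.6, 25.6 and 40.6 against 10.1 and 17.0, with 26.7 to 37.9 before treatment. A circRNA with no host named in the table (3R:8785730-8786925) went from 3.66 and 5.32 at 25 °C to 37.7, 25.6 and 32.2 at 18 °C (log2 2.58 ± 0.94, adjusted p = 0.647, limma).

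**Figure D5:**
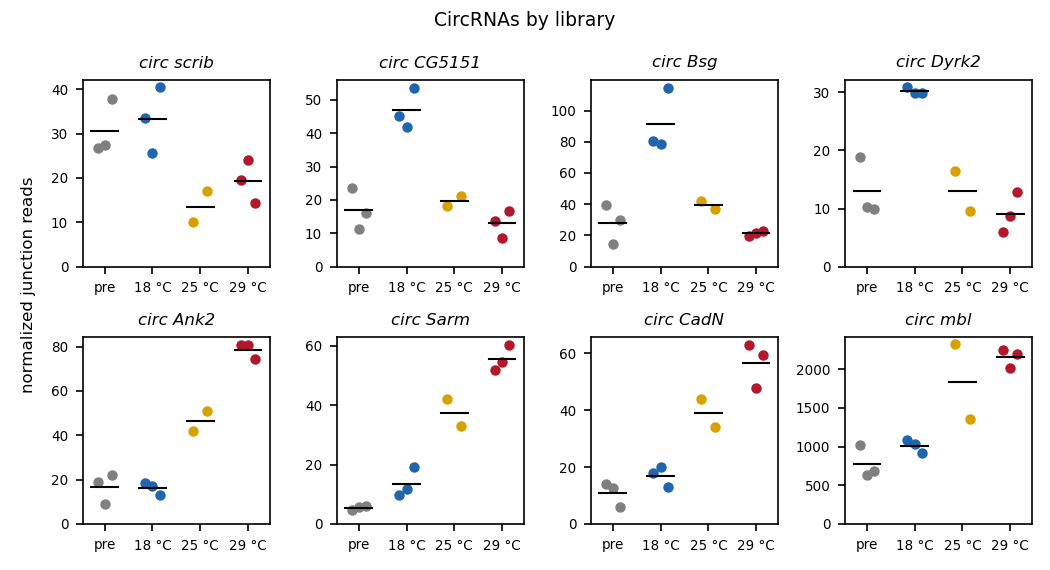
Normalized head-to-tail junction reads (y axis) of 8 circRNAs in each library of the 4 groups (x axis), 1 point per library and a bar at the group mean. The upper row shows 4 of the largest rises at 18 °C, the lower row 3 of the largest falls and the circRNA of mbl, which has the most reads and whose 2 points at 25 °C lie far apart.

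The most abundant circRNA, from mbl, a regulator of splicing, had 1082, 1035 and 922 normalized reads at 18 °C and 2328 and 1353 at 25 °C (log2 -0.81 ± 0.43, adjusted p = 0.874, limma). The groups did not overlap, but the libraries at 25 °C differed from each other by more than the nearer one differed from the cool libraries. Next in level were the circRNAs of btsz (878, 708 and 1214 against 1217 and 1157), Wbp2 (310.0, 253 and 338 against 291 and 458) and dlg1 (302, 256 and 362 against 235 and 188), of which dlg1 alone had groups apart.

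The study followed circRNAs of further host genes by RT-qPCR. These are matched here by host alone, taking the tested circRNA with the most reads, and may not be the circRNA amplified there. Those of Haspin, a histone kinase (56.2, 60.7 and 66.8 against 81.5 and 120.2), sfl, a heparan sulfate enzyme (9.6, 11.9 and 8.35 against 13.7 and 14.9), and CG41099 (6.17, 5.22 and 5.97 against 14.6 and 19.1) lay lower at 18 °C in every library. That of Jupiter, a microtubule protein (30.2, 29.4 and 27.4 against 18.3 and 17.0), lay higher. Of 2 circRNAs of the receptor gene Eph, that at 4:611285-613795 (8.92, 8.06 and 9.55 against 5.49 and 2.13) lay higher and that at 4:619637-621872 (0, 2.85 and 3.58 against 7.32 and 9.57), named after its values were seen, lower. None was called, and those of CaMKI, CG44153, CG32809, Dscam2 and brp (a span of 51 nt that does not end at annotated exons) overlapped between groups.

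By length, the 359 circRNAs spanning 50 to under 700 nt of genome had a median change of 0.26, the 703 of 700 to under 2000 nt -0.10 and the 705 of 2000 nt or more -0.05. Over all circRNAs tested the median was -0.02. In the shortest class 49 lay above and 29 below, and in the others 95 against 130 and 102 against 123. Of all circRNAs tested 13.9% lay above and 16% below. These classes were set on span alone and their difference was not tested.

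Of the 410 called linear genes 7 host a tested circRNA (1.71%), beside 791 of all 12676 tested (6.24%). Of the 7, 3 were higher and 4 lower at 18 °C, with 13 circRNAs between them. Linear tim rose 2.83-fold, while its circRNA (2L:3499321-3504578) had 11.7, 8.54 and 2.39 normalized reads at 18 °C and 9.15 and 7.44 at 25 °C (log2 -0.32 ± 0.83, adjusted p = 0.987, limma), values that overlapped and rest on few reads. InR fell by 0.52 on the log2 scale, and its circRNA had 13.7, 8.54 and 4.77 against 8.24 and 10.6. The ratio of circRNA to linear host was tested for 1641 circRNAs of 791 hosts. By limma 0 ratios were called, with 104 at an unadjusted p under 0.05 and a median change of -0.07.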

How the data were processed

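Groups were taken from the labels. The unit of the deposited table is a signal, reads scaled by the authors. Per the submitters' notes and the study's methods they used STAR, featureCounts and the dm6 build for linear genes, took circRNAs from junction reads, and scaled both kinds together by size factors of DESeq2. Versions and the strand setting of the counting are not given in the sources used here. Dividing by the smallest step of each library gave whole reads for 100% of values within 0.01. These recovered reads served edgeR 4.0.16 and DESeq2 1.42.0 only, since a count test is not the main test for normalized values. Depth limited low values, since 3 reads were worth between 1.42 and 5.98 normalized reads.

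CircRNAs (those spanning at least 50 nt, with all libraries of a group above 3) and linear genes (mean of at least 10) were tested apart from each other in limma 3.58.1 (R 4.3.3) after taking log2(value + 1), using a trended empirical Bayes prior and 1 fit of all 11 libraries. Benjamini-Hochberg adjustment ran over each whole table. Calls needed an adjusted p under 0.05 and a log2 change above 0.5. Folds are ratios of group means, log2 changes are limma's and understate the change of low genes. The ratio of circRNA to host was tested as a difference of log2 values, the total by an exact permutation test. The fit was tested on simulated data.

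Named were, of the linear genes called at a mean of at least 100 over both groups and with groups apart, the 10 that rose most and the 10 that fell most, up to 4 called members of each gene list by adjusted p, members of the clock, cold, Turandot, heat shock, temperature channel, phototransduction, insulin and fat storage lists, and for circRNAs the called ones, the 6 largest rises and falls at a mean of at least 20 with groups not overlapping and an unadjusted p under 0.05, the 5 most abundant and those of hosts measured by RT-qPCR. The comparison, lists and rules were chosen with earlier results of these data known. CircRNA positions are in dm6 with starts counted from 1. Tried as alternatives were fits with fewer groups, without each library, with a replicate term or a depth covariate, edgeR and DESeq2, and changes of pseudocount, filter and scaling.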

Additional observations from a re-analysis of the deposited data

Results flagged for a closer look

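The table also lists 91 circRNA entries whose ends lie fewer than 50 nt apart, which were left out of all totals and tests. They were not empty: their summed level was 1510.6 normalized reads on average over the 3 libraries at 18 °C, far above the 1.42 to 3.58 normalized reads that 3 reads are worth there. The sum was 1558, 1368 and 1606 at 18 °C and 1682 and 1477 at 25 °C, and the groups overlapped.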

How the results depend on the processing

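The 410 linear calls became 87 with the 5 libraries of the comparison alone (48 higher, 39 lower), 722 with depth as a covariate and 676 by DESeq2, and stayed within 1.5 times under other pseudocounts, filters and scalings and by edgeR. Leaving out 1 library gave 208 to 500. Where libraries were left out, the direction of the 410 could not change, since their groups did not overlap. With the depth covariate, the replicate block or rescaling to the linear total it could have changed, and all 410 kept it. Without 25 °C replicate 2, 206 of the 410 kept their call. Rescaled to the linear total, 421 were called, 183 higher and 238 lower. Of 77 calls among listed genes, the count was 20 with the 5 libraries alone, 117 by DESeq2 and 42 to 88 without 1 library. Of 70 named called genes, 26 kept their call in every alternative, tim, per, vri and Clk among them.

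The 3 circRNA calls became 0 under the stricter filter, with the 5 libraries alone, without the pre-treatment group, by edgeR and by DESeq2, 7 with TMM scaling (5 higher, 2 lower) and 6 when rescaled to the circRNA total (5 and 1), and were 3 to 5 without 1 library. The ratio of total circRNA was 0.896 over circRNAs passing the filter, 0.889 as a share of all reads and 0.802 to 1.03 without 1 library, reversing to 1.03 without 25 °C replicate 2. The ratio of circRNA to host had 0 calls by limma in each alternative run (0 to 0 without 1 library).

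The labels number replicates in each group but do not say that equal numbers belong together, and only numbers 1 and 2 are shared by both groups. Across 12676 genes, which are not independent, the difference between replicates 1 and 2 at 18 °C had a correlation of -0.296 with that at 25 °C. A fit with a replicate block called 340 linear genes (159 higher, 181 lower), 74 listed genes, 3 circRNAs and 0 ratios.

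The smallest p that the test of total circRNA allows is 0.2, and 3 reads are worth 2.75 and 3.19 normalized reads at 25 °C. Where 1 library was left out at 25 °C, the lone library was taken to vary like the other groups.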

Other observations

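Several genes of DNA replication stood higher at 18 °C, a pattern noticed after the values were seen and described here without a test. A list of 49 textbook members of the replication machinery, written after that, had 44 tested genes, of which 10 were called higher and 0 lower, with a median change of 0.39 and 22 lying wholly above and 1 below 25 °C (1.55% of all genes were called higher and 15.9% lay above). The sliding clamp gene PCNA had 305, 226 and 266 normalized reads at 18 °C and 129 and 138 at 25 °C (log2 0.98 ± 0.16), with 100.2 to 119.8 at 29 °C and 118 to 126 before treatment. Claspin, of the replication checkpoint, had 393, 351 and 419 against 146 and 137 (log2 1.44 ± 0.18), with 127 to 176 at 29 °C and 112 to 149 before treatment. In both genes the cool flies stood above all 8 other libraries, which lay close together.

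Thymidylate synthase (Ts), which makes a DNA precursor, had 248, 211 and 311 against 72.3 and 119 and 40.6 to 56.0 at 29 °C. Both subunit genes of ribonucleotide reductase were called, RnrL at 567, 521 and 536 against 329.5 and 349.9 and RnrS at 654, 549 and 672 against 306 and 440.2, as were the helicase genes Mcm7 (55.6, 48.9 and 46.5 against 19.2 and 12.8) and dpa (535, 592 and 473 against 314 and 274). The helicase genes Mcm2, Mcm5, Mcm6 and Mcm3 had changes of 0.76, 0.79, 0.24 and -0.03 and were not called. The count of calls was 11 by edgeR, 3 without 18 °C replicate 1, 3 without 25 °C replicate 1, 4 without 25 °C replicate 2 and 1 with the 5 libraries alone, while the median stayed between 0.31 and 0.44 in all alternatives run.

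Enzymes that break down amino acids were lower in single members, also picked after seeing the values. GstZ2, a maleylacetoacetate isomerase of tyrosine breakdown, had 3102, 3134 and 2786 against 7137 and 6922, and hgo, the homogentisate dioxygenase of the same route, 4849.6, 4306 and 4809 against 7431 and 9153 (log2 -0.83 ± 0.09). Sardh, a sarcosine dehydrogenase, had 1629, 1704 and 2187 against 5831 and 6777 (log2 -1.78 ± 0.17) with 7665 to 9490.0 at 29 °C and 1371 to 1908 before treatment. Of 6 tyrosine breakdown genes tested 2 were lower and 0 higher, beside 1.68% and 1.55% of all genes, with Hn at 0.10 and Faa at 0.21. Jabba, which anchors proteins on lipid droplets, was at 10074, 9633 and 11518 against 5701 and 5286 (log2 0.92 ± 0.10).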
